A study of Homo sapiens with 12 samples.

Results

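The genes described here are the molecular chaperones and their regulators: heat shock proteins of the HSP70, HSP110, HSP60 and small HSP families, J-proteins, the cytosolic chaperonin, prefoldin, BAG proteins, heat shock factors and the HSP90 cochaperones CHORDC1, STIP1, PTGES3 and CDC37. They were taken by their symbols, and pseudogenes were dropped, which gave 35 of the 14884 gene symbols measured. Of the 35, 32 code for proteins and 3 are non-coding transcripts whose symbols match the families' names (DNAJC27-AS1, DNAJC9-AS1 and HSPB2-C11orf52). The HSP70 and HSP110 families had 12 members, prefoldin 5, the BAG family 5, the cochaperones 4, the small HSPs 3, the heat shock factors 2 and the mitochondrial chaperonin 1. The annotation used gave a symbol to 0 J-protein genes, 0 HSP90 genes and 0 subunits of the cytosolic chaperonin. HSPA8, HSPA5, HSPE1, HSF2, BAG6 and AHSA1 were also without a symbol there. The name of the set therefore covers more than was measured, and those genes were not analysed here. Counts within a family cover its measured members only.

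The cells were of H1299, a line grown from a human lung tumour of the non-small cell kind, and carried Dendra2, a fluorophore that turns from green to red under violet light. Per the study's methods, spheroids invaded Matrigel overnight, chosen cells were converted with a laser, and the cells were freed with enzyme and sorted. The 4 groups were leader cells (L), follower cells (F), invasive cells that were photoconverted (IR) and invasive cells that were not photoconverted (NG), with 3 arrays each. All 4 groups came from 1 cell line, each array was made from RNA of a few sorted cells after linear amplification, and since no label calls the wells independent cultures, the p-values reflect only how far these arrays spread, which may be technical.

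Chaperones bind unfolded or partly folded proteins. HSP70 works in cycles of ATP binding and hydrolysis, which J-proteins start and nucleotide exchange factors such as HSP110 and BAG proteins end, and hands clients on to HSP90 or to the chaperonins. Heat, oxidative damage and other proteotoxic stress free HSF1 to bind heat shock elements, inverted repeats of a short unit, upstream of inducible members such as HSPA1A, HSPA1B, HSPA6 and HSPH1. In tumour cells, HSF1 and its targets are known to be active without heat.

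The values are log2 signals that the authors had adjusted for GC content, background corrected and quantile normalized. The number of symbols above a log2 value of 6 ran from 76 to 332 per array, the most on NG replicate 2. Arrays of the same group correlated at 0.598 to 0.754 over all symbols and arrays of different groups at 0.542 to 0.760, so groups did not stand apart as wholes. Of the markers of the line, 6 of 7 were measured, and VIM averaged 6.03 while the other 5 averaged 2.48 (KRT7) to 3.86 (KRT18). Of 16 markers of other cell types 5 were measured and averaged 2.33 to 3.38, a range that overlaps that of the line's markers other than VIM, beside a median of 2.90 over all symbols. The values carry no detection call, and 7 of the 35 members averaged below that median.

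No member, and no gene at all, passed an adjusted p under 0.05 in any comparison (limma with Benjamini-Hochberg adjustment), which is 0.0% of 14884 symbols between leader and follower cells, 0.0% between photoconverted and non-photoconverted invasive cells, 0.0% between leader and photoconverted, 0.0% between follower and photoconverted and 0.0% for leader minus follower less the control difference. The lowest adjusted p of a member was 0.9997 for leader minus follower and 0.9151 for photoconverted minus non-photoconverted. The counts below therefore use an unadjusted limma p under 0.05, or arrays that do not overlap, and each is set beside the share over all symbols. Each array pools a few sorted cells, so fewer cells with a transcript and less of it per cell cannot be told apart.

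CHORDC1, a zinc-binding cochaperone of HSP90 whose gene is heat-inducible, was the member with the smallest p between leader and follower cells. Its log2 value was 2.45, 2.53 and 2.86 on the leader arrays, against 3.67, 4.66 and 4.75 on the follower arrays. The invasive cells stood at 3.02, 2.31 and 3.15 when photoconverted, against 3.43, 2.92 and 2.47 when not. All 3 follower arrays therefore lay above each of the other 9 arrays, and the other 3 groups overlapped one another. Leader minus follower was -1.75 on the log2 scale (standard error 0.34) with an unadjusted limma p of 0.000297, rank 3 of 14884. Follower minus photoconverted was 1.54 (standard error 0.34), rank 9, in a comparison that shares the follower arrays. Photoconverted minus non-photoconverted was -0.12 (standard error 0.34), and the leader minus follower difference less this control difference was -1.63 (standard error 0.48), with an unadjusted p of 0.00582 and an adjusted p of 0.9963 in limma. CHORDC1 was 1 of 35 members (2.86%) at an unadjusted p under 0.05 for this difference of differences, beside 3.65% of all symbols. Every leader value lay below 2.90, the median over all symbols. Leaving out single arrays gave a leader minus follower difference of -2.09 to -1.55, and the unadjusted p stayed under 0.05 without each of the 12 arrays and under each of 10 other settings.

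Upstream of the start of CHORDC1 stands the longest run of heat shock elements among the members with a promoter window. A heat shock element was searched as 3 inverted units with free bases between them, GAANNTTCNNGAA or TTCNNGAANNTTC, which covers both strands since each is the reverse complement of the other, and matches may overlap. Of the 35 members, 29 had a promoter window in the RefSeq table (GRCh38.p14, 250 bases before the start to 50 after it), and 3 of them held a match, as did 0.608% of the 27305 genes with a window. The sequences of these 3 are shown with the units in capitals, because they are the members whose windows carry the element.
CHORDC1 (chr11:90223070-90223139, minus strand): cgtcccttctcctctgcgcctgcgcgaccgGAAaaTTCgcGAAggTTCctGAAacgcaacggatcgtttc
HSPA6 (chr1:161524430-161524499, plus strand): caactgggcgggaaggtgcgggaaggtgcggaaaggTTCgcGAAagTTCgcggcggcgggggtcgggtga
HSPD1 (chr2:197500041-197500090, minus strand): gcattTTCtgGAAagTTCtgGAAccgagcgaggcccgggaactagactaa
CHORDC1 has 5 alternating units in a row, which makes 3 overlapping matches, the first starting 60 bases before the start of the transcript. HSPA6 has 3 units that start 74 bases before its start, and HSPD1 has 4 units that begin 245 bases before the start in 1 of its 2 windows. A match is a description of the letters and not a bound site, and the remaining 26 members with a window hold no such run in these bases. A search for only 2 units, GAANNTTC or TTCNNGAA, matched 14 of the 29 members, beside 16.2% of genes with a window. HSPA1A and HSPA1B were among the 14, and HSPH1 was not.

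**Figure D1:**
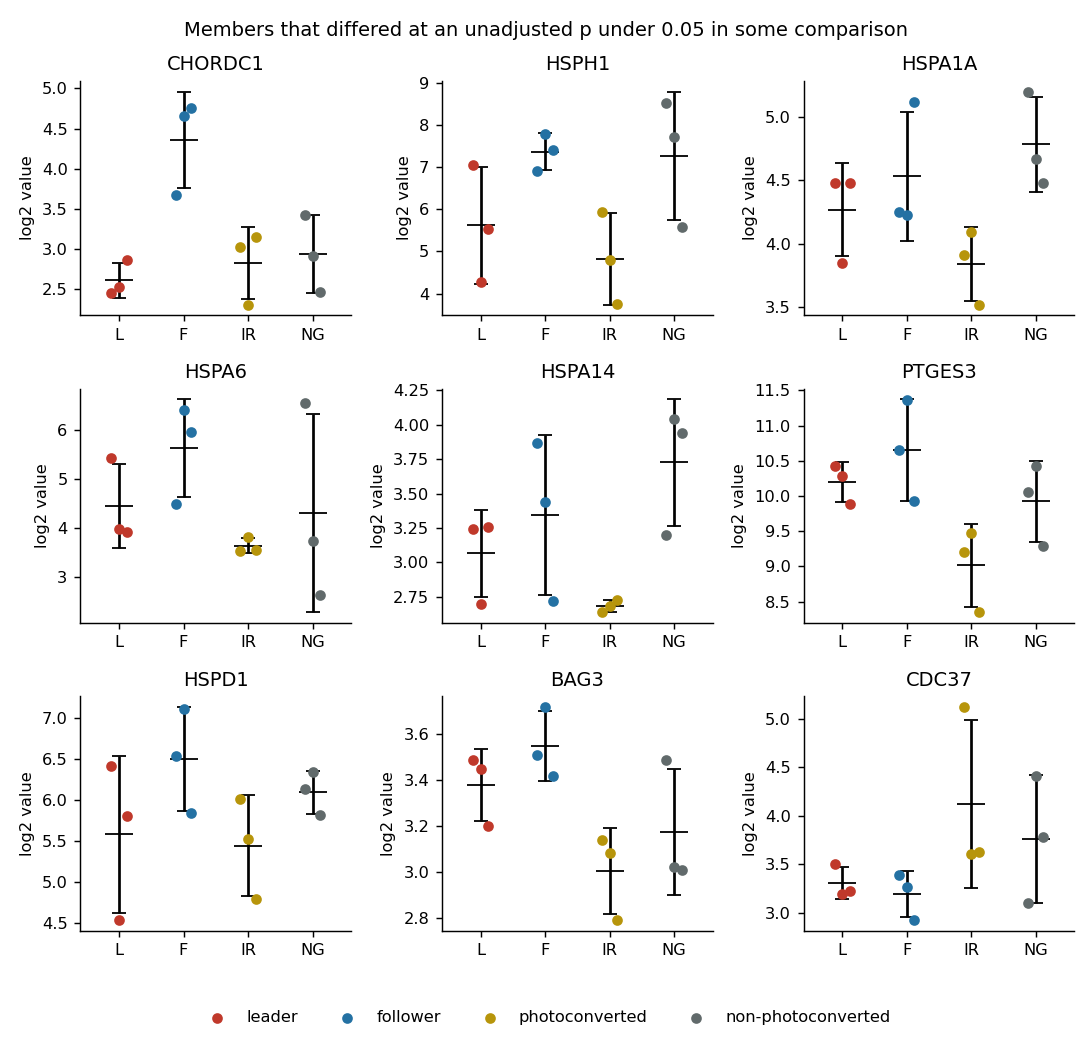
Log2 value of the 9 members with an unadjusted limma p under 0.05 in some comparison between groups, on each array of leader (L), follower (F), photoconverted (IR) and non-photoconverted (NG) invasive cells. Points are arrays, bars are the mean ± SD of 3 arrays, and the vertical axes differ in range and do not start at 0. The 3 follower arrays of CHORDC1 lie between 3.67 and 4.75, above every other array, and the IR arrays of HSPA14 lie between 2.64 and 2.73.

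The members as a set leaned towards lower values in leader than in follower cells, with 21 of 35 lower and a median difference of -0.17, beside 49.6% lower and a median of 0.0022 over all symbols. Dropping leader replicate 2 brought the members' median to -0.051, and dropping follower replicate 2 to -0.083. At an unadjusted p under 0.05, 0 members were higher in leader cells, beside 2.14% of all symbols, and 1 member, CHORDC1, was lower, which is 2.86% of members beside 1.98%. Arrays did not overlap for 1 member higher in leader cells, DNAJC9-AS1 (2.86% beside 5.01% of all symbols), and for 2 lower, CHORDC1 and DNAJC27-AS1 (5.71% beside 3.73%). These shares of members are near those of all symbols. With the permutation procedure of the study's methods, which sets the leader minus follower differences against those between the invasive controls, 0 of 33 members were called higher in leader cells beside 3.14% of 14198 symbols, and CHORDC1 alone was called lower (3.03% beside 2.51%). HSPA1A and HSPA14 were left out there, since the procedure as run drops genes with a p under 0.05 between the controls in an ordinary t-test. HSPH1 and PTGES3 had a limma p under 0.05 between the controls, but were not dropped by that t-test. The 18 pair differences that the procedure permutes share arrays, so its calls cannot be read as those of independent values.

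The HSP70 and HSP110 families, the ATP-driven chaperones and their exchange factors, held 10 of the 21 members that lay lower in leader than in follower cells. These were 10 of the 12 in the families, whose median difference was -0.27. HSPH1 (HSP105), an HSP110 protein that frees ADP from HSP70, had log2 values of 7.05, 4.28 and 5.53 on the leader arrays, against 6.91, 7.78 and 7.40 on the follower arrays. Leader replicate 1 lay above 1 follower array, and the other leader arrays lay below all 3. The difference was -1.74 (standard error 0.82, rank 718 by limma p), and it was -2.46 without leader replicate 1 and -1.07 without leader replicate 2. HSPA6, an HSP70 that is made almost only under stress in human cells and that is near-identical to the pseudogene HSPA7, was at 5.43, 3.98 and 3.92 in leader cells, against 4.50, 6.42 and 5.96 in follower cells. Its groups overlapped, with a difference of -1.18 (standard error 0.84). HSPA4 (Apg-2), another exchange factor, was at 6.73, 4.98 and 3.87 on the leader arrays and at 5.53, 6.17 and 5.55 on the follower arrays. The leader arrays spread on both sides of the follower arrays, and the difference of -0.55 (standard error 0.55) turned to 0.11 without leader replicate 3. HSPA9 (mortalin), the mitochondrial HSP70, was at 6.75, 3.34 and 4.87 in leader cells and at 5.21, 5.25 and 3.45 in follower cells, the largest difference upwards in this family at 0.35 with a standard error of 0.96. That error is larger than the difference, and HSPA9 also varied within the photoconverted arrays, with 5.82 on IR replicate 2 and 3.57 on IR replicate 3.

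HSPA1A and HSPA1B, the main heat-inducible HSP70 genes, lie side by side on chromosome 6 and are near-identical copies, so their probesets may share signal. HSPA1A was at 4.48, 3.85 and 4.48 in leader cells and at 4.25, 4.23 and 5.12 in follower cells. HSPA1B was at 5.86, 4.52 and 5.89 in leader cells and at 4.93, 5.25 and 6.10 in follower cells, and differed by -0.01 (standard error 0.42). Both pairs of groups overlapped, and of the 5 probesets of each gene 4 had a negative and 1 a positive leader minus follower difference. Only 3 of the 5 HSPA1A probesets held distinct values. The HSPA1A difference of -0.26 had a standard error of 0.30, so no difference was detectable with 3 arrays per group.

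HSPD1 (HSP60), which folds proteins inside mitochondria, was at 6.41, 4.54 and 5.80 on the leader arrays, against 6.54, 7.11 and 5.84 on the follower arrays. Each follower array lay above 2 of the leader arrays, and leader replicate 1 lay inside the follower range. The difference was -0.91 (standard error 0.47, rank 1030 by limma p). Leaving out leader replicate 2 moved it to -0.39 and leaving out leader replicate 1 moved it to -1.33.

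The other cochaperones had leader minus follower differences close to or below their standard errors. PTGES3 (p23), which closes the HSP90 cycle, was at 10.42, 10.29 and 9.88 in leader cells and at 10.66, 11.37 and 9.93 in follower cells. Its difference of -0.46 (standard error 0.41) was within the spread, and its second probeset had a difference of -0.91. STIP1 (HOP), the adaptor between HSP70 and HSP90, differed by -0.22 (standard error 0.42). CDC37, which brings kinases to HSP90, differed by 0.12 (standard error 0.41).

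BAG proteins bind HSP70 through a shared domain and speed nucleotide release. In the BAG family 3 of 5 lay higher in leader cells, from -0.36 for BAG1 to 0.33 for BAG2, with standard errors of 0.45 and 0.42. BAG3, a heat-inducible member that directs clients to autophagy, was at 3.49, 3.45 and 3.20 in leader cells and at 3.51, 3.72 and 3.42 in follower cells, and the arrays overlapped. Prefoldin, which passes new actin and tubulin chains to the cytosolic chaperonin, had 4 of 5 subunits higher in leader cells, from -0.28 for PFDN4 to 0.63 for PFDN2. PFDN2 rested on 1 array, with 4.37, 3.57 and 6.53 on the leader arrays, against 3.51, 4.75 and 4.33 on the follower arrays. Without leader replicate 3 its difference was -0.22.

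The small HSPs hold unfolded proteins in large complexes without using ATP. HSPB1 (HSP27) was at 4.45, 3.91 and 4.62 in leader cells and at 4.30, 4.44 and 4.84 in follower cells, a difference of -0.20 (standard error 0.25). HSPB3 differed by 0.45 (standard error 0.31) and HSPB8, the partner of BAG3, by -0.34 (standard error 0.19). HSF1, the factor that drives the heat shock response, was at 2.92, 3.08 and 3.25 in leader cells and at 2.39, 3.30 and 2.54 in follower cells. The HSF1 groups overlapped, with a difference of 0.34 (standard error 0.30), and HSF4, known for its role in the lens, differed by -0.01 (standard error 0.41). DNAJC9-AS1, an antisense RNA of a J-protein gene, was at 3.99, 4.15 and 3.97 on the leader arrays, against 3.96, 3.44 and 3.15 on the follower arrays. Its arrays were apart by a narrow gap, with a difference of 0.52 (standard error 0.28), and whether its probes separate it from the sense partner was not tested.

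**Figure D2:**
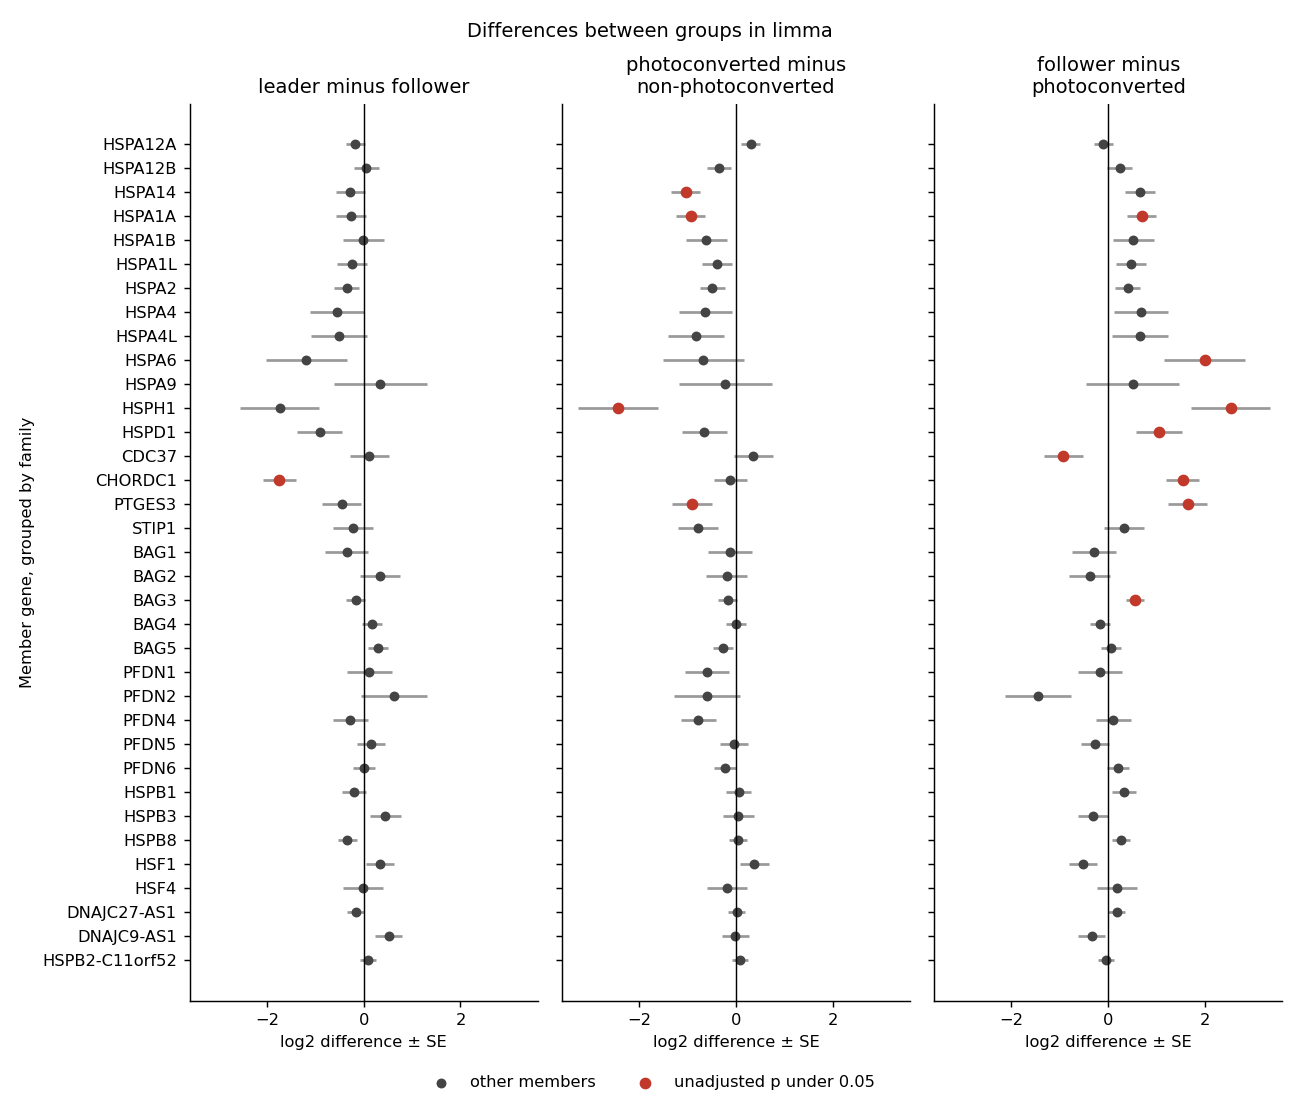
Difference in log2 value for each of the 35 members, by family, for leader minus follower, photoconverted minus non-photoconverted and follower minus photoconverted cells. Points are limma estimates, bars their standard errors, and red points have an unadjusted p under 0.05, which holds for 1, 4 and 8 members. The middle and right panels share the photoconverted arrays, and the left and right panels share the follower arrays.

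The photoconversion control compared invasive cells that differed in laser exposure. Photoconverted cells had lower values for 26 of 35 members, with a median of -0.23, beside 47.3% lower and a median of 0.017 over all symbols. At an unadjusted p under 0.05, 4 members were lower (HSPA14, HSPA1A, HSPH1 and PTGES3), which is 11.4% of members beside 3.01% of all symbols, and 0 were higher beside 1.85%. Arrays did not overlap for 4 lower members (HSPA12B, HSPA14, HSPA1A and HSPA1B), or 11.4% beside 4.65%, and for 1 higher member, HSPA12A, or 2.86% beside 5.1%. Both shares of lower members were above those of all symbols, and none of the 4 had an adjusted p below 0.9151 in limma. The shares over all symbols take in many low-level genes, while only 7 of the 35 members averaged below the median level. Among the 7442 symbols above that level, 312 were lower and 125 higher at an unadjusted limma p under 0.05. In that fit HSPA14, HSPA1A and HSPH1 kept an unadjusted p under 0.05, and PTGES3 did not. The part of signal level in the members' shares was not tested. Of 14 genes listed as steadily expressed at a high level, 8 were measured. Of these, 6 also had lower values in photoconverted cells, and the median over the 8 was -0.25. GAPDH and EEF2 had an unadjusted limma p under 0.05, but averaged only 3.97 and 3.28, beside a median of 2.90 over all symbols. The part of this shift in the members' result was not tested.

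Of the HSP70 and HSP110 members, 11 of 12 had lower means in photoconverted than in non-photoconverted cells, with a median of -0.62. HSPA14, an HSP70-like protein of the ribosome-associated complex, was at 2.64, 2.68 and 2.73 in photoconverted cells, against 3.20, 4.04 and 3.94 in non-photoconverted cells. The photoconverted arrays lay close together and below each non-photoconverted array, and the difference was -1.04 (standard error 0.31, rank 92 by limma p). All 3 photoconverted values lay below 2.90, the median over all symbols, and carry no detection call. Its unadjusted p stayed under 0.05 without each of the 12 arrays. HSPA1A was at 3.91, 4.09 and 3.52 in photoconverted cells, against 5.20, 4.67 and 4.48 in non-photoconverted cells. The groups did not overlap, and the difference was -0.94 (standard error 0.30, rank 152), and of the alternatives run only cyclic loess took its unadjusted p above 0.05. All 5 probesets of HSPA1A ran this way, from -0.97 to -0.94, although only 3 of them held distinct values. HSPA1B was at 5.06, 5.13 and 4.54 in photoconverted cells, against 6.14, 5.21 and 5.22 in non-photoconverted cells. Its arrays were apart, but the difference of -0.61 (standard error 0.42) rested largely on NG replicate 1, without which it was -0.30.

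HSPH1 had the largest control difference of any member. It was at 5.94, 4.79 and 3.76 in photoconverted cells, against 8.52, 7.71 and 5.57 in non-photoconverted cells. NG replicate 3 lay below IR replicate 1, so the groups overlapped, and the difference was -2.44 (standard error 0.82, rank 197), or 5.41-fold lower. It was -1.81 without NG replicate 1 and -3.28 without NG replicate 3, and the unadjusted p went above 0.05 without NG replicate 1 or IR replicate 3. PTGES3 was at 9.21, 9.48 and 8.35 in photoconverted cells, against 10.06, 10.42 and 9.29 in non-photoconverted cells, with 1 pair of arrays crossing and a difference of -0.91 (standard error 0.41). Its second probeset differed by -0.47, and its unadjusted p went above 0.05 in 8 of the 12 fits that left out a single array and in 7 of 10 other settings. HSPA6 was at 3.53, 3.81 and 3.56 in photoconverted cells, against 6.56, 3.73 and 2.63 in non-photoconverted cells. The NG arrays of HSPA6 spread above and below the IR arrays, and its difference of -0.67 (standard error 0.84) was 0.45 without NG replicate 1.

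All 5 prefoldin subunits had lower means in photoconverted cells, with a median of -0.60, from -0.78 for PFDN4 to -0.05 for PFDN5, and 0 had an unadjusted p under 0.05. PFDN4 was at 3.57, 4.39 and 3.04 in photoconverted cells and at 4.64, 3.92 and 4.77 in non-photoconverted cells. STIP1 was at 3.15, 3.17 and 3.38 in photoconverted cells, against 4.30, 4.65 and 3.11 in non-photoconverted cells, a difference of -0.79 (standard error 0.42) in which NG replicate 3 lay with the photoconverted arrays. The 3 small HSPs differed by 0.04 to 0.06, less than their standard errors, and HSPB1 was at 4.54, 4.27 and 3.80 in photoconverted cells and at 4.22, 3.91 and 4.31 in non-photoconverted cells. HSF1 differed by 0.38 (standard error 0.30) and HSPD1 by -0.65 (standard error 0.47).

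Set against photoconverted invasive cells, follower cells had more members apart than leader cells did, although both comparisons use the same 3 IR arrays and the difference between the counts was not tested. Follower minus photoconverted was positive for 23 of 35 members, with a median of 0.23 beside -0.0054 over all symbols (0.15 without follower replicate 3). At an unadjusted p under 0.05, 7 members were higher in follower cells (PTGES3, CHORDC1, HSPH1, BAG3, HSPA6, HSPA1A and HSPD1), which is 20.0% of members beside 2.07% of all symbols, and 1 was lower, CDC37, or 2.86% beside 2.14%. Arrays did not overlap for 8 higher members, or 22.9% beside 4.33%, and for 2 lower ones, CDC37 and PFDN2, or 5.71% beside 4.81%. The 7 became 3 without IR replicate 3 and 4 without follower replicate 2. The 2.07% of all symbols is from the main fit. No such share was set beside the fits without an array, so this drop cannot be read as particular to the members. PTGES3, CHORDC1 and HSPH1 stayed at an unadjusted p under 0.05 without each of the 12 arrays, while BAG3 was lost without 2 of them, HSPA1A without 3, HSPA6 without 5 and HSPD1 without 8. Of 10 other settings, HSPA1A was lost in 6, HSPD1 in 4 and HSPA6 in 1, and the other 4 members in 0. None had an adjusted p below 0.9981 in limma. As for the controls, the shares over all symbols take in many low-level genes, which are fewer among the members. The part of signal level in these shares was not tested.

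Among these, PTGES3 differed by 1.64 (standard error 0.41, rank 23), and its 3 follower arrays, from 9.93 to 11.37, lay above its IR arrays, from 8.35 to 9.48. HSPH1 differed by 2.53 (standard error 0.82), with follower arrays from 6.91 to 7.78 above IR arrays from 3.76 to 5.94. HSPA6 differed by 1.99 (standard error 0.84), and HSPD1, whose arrays overlapped, by 1.05 (standard error 0.47). HSPA1A differed by 0.69 (standard error 0.30) and BAG3 by 0.55 (standard error 0.19), with IR values of BAG3 at 3.14, 3.08 and 2.79. These members span HSP70, its exchange factors, the mitochondrial chaperonin and the HSP90 cochaperones. CDC37 ran the other way, at 3.39, 3.27 and 2.93 in follower cells, against 5.12, 3.61 and 3.63 in photoconverted cells. Its difference of -0.93 (standard error 0.41) was -0.43 without IR replicate 1, and its call was lost in 8 of the 12 fits without a single array and in 7 of 10 other settings.

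Between leader and photoconverted cells, 24 of 35 members were higher in leader cells, with a median of 0.13 beside 0.0022 over all symbols. That median was 0.051 without leader replicate 3, 0.053 without IR replicate 3 and 0.071 without leader replicate 1. Only PTGES3 had an unadjusted p under 0.05 on the higher side, or 2.86% of members beside 1.78%, and 0 members did on the lower side beside 2.12%. PTGES3 differed by 1.18 (standard error 0.41), and its leader arrays, from 9.88 to 10.42, lay above its IR arrays, with the call lost without IR replicate 3 among the 12 arrays and in 2 of 10 other settings. The second probeset of PTGES3 differed by only 0.29, and its arrays overlapped. Arrays did not overlap for 3 higher members (BAG3, HSPA6 and PTGES3), or 8.57% beside 5.01%, and for 2 lower ones, BAG1 and CDC37, or 5.71% beside 4.53%.

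Over the 4 groups, the photoconverted invasive cells held the lowest mean for 18 of 35 members (51.4%), beside 22.3% of all symbols, and for 11 of the 12 HSP70 and HSP110 members. HSPA12A, a distant HSP70 relative, was the exception and had its highest mean there. The non-photoconverted cells held the highest mean for 15 members (42.9% beside 24.9%), all 5 prefoldin subunits among them. The follower cells held it for 11 (31.4% beside 24.7%) and the leader cells for 6 (17.1% beside 26.2%). These shares describe the order of means and come with no test.

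**Figure D3:**
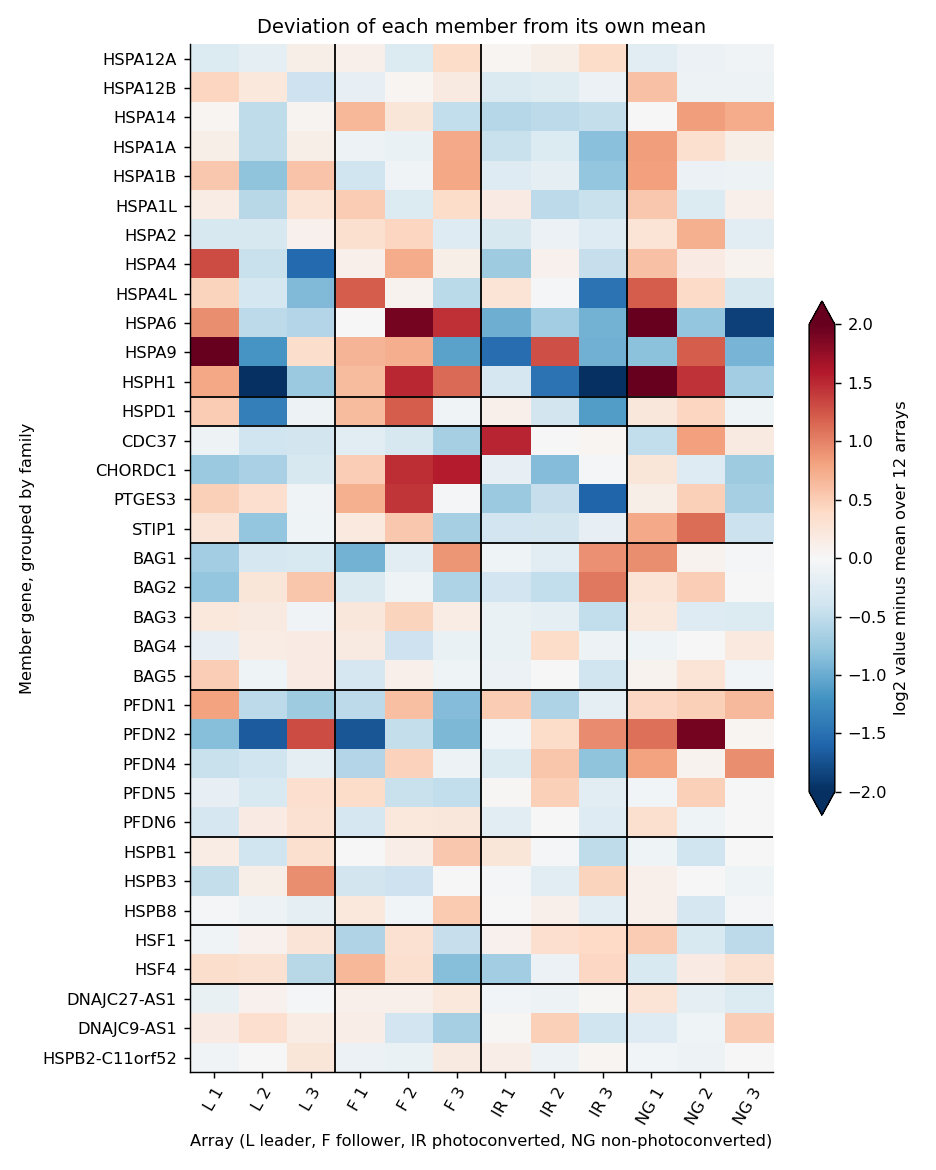
Log2 value of each member on each array minus that member's mean over the 12 arrays, with members grouped by family (black lines) and arrays by group. Red is above and blue below the member's mean, and the colour scale stops at 2 in either direction. HSPH1, HSPA6 and HSPA1A are red on NG replicate 1 and blue on IR replicate 3.

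Members also differed between arrays of the same group. NG replicate 1 held the highest value of 11 members (31.4%), beside 8.32% of all symbols, and of 0 members the lowest. Those 11 included the stress-inducible HSPA1A, HSPA1B, HSPA6 and HSPH1 together with HSPA1L, HSPA4L and HSF1. IR replicate 3 held the lowest value of 8 members (22.9% beside 6.03%), among them HSPA1A, HSPH1, PTGES3 and BAG3. Leader replicate 2 held the highest value of 0 members, beside 8.18% of all symbols, and the lowest of 5 (14.3% beside 7.57%), HSPA1B and HSPD1 among them. Follower replicate 3 also held the lowest value of 5 members (14.3% beside 10.4%). The median deviation of the members from their own means was 0.26 on NG replicate 1, -0.25 on IR replicate 3 and -0.34 on leader replicate 2, where that of all symbols was -0.01, -0.02 and -0.02. Neither cell number per array nor RNA quality is in the values used, and their part in this was not tested.

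**Figure D4:**
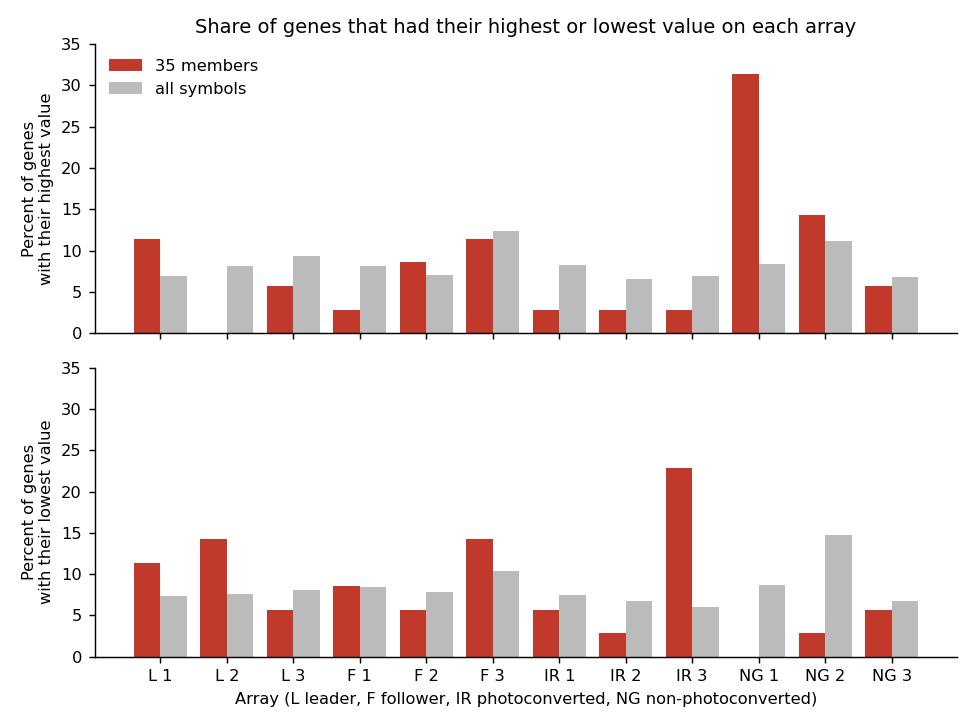
Percent of the 35 members (red) and of all 14884 symbols (grey) that had their highest value (top) or lowest value (bottom) on each of the 12 arrays. NG replicate 1 holds the highest value of 31.4% of members and IR replicate 3 the lowest of 22.9%.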

How the data were processed

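Amplified RNA of sorted cells was measured on 12 Human Gene 2.0 ST arrays (Affymetrix), 3 for each of 4 groups. The authors deposited log2 values, adjusted for GC content, background corrected with RMA, quantile normalized and summarized as means per probeset. Partek 6.6 and RMA are the tools listed in the submitters' processing notes. A genome build is not stated there. Of 53617 probesets, 16098 had 1 symbol, 0 several and 37519 none. The probeset with the highest mean stood for each of 14884 symbols. All 4 groups entered a single model in limma 3.58.1 under R 4.3.3, with moderated statistics and Benjamini-Hochberg adjustment over all symbols at a threshold of 0.05, tested on simulated data. The methods' permutation procedure (500 permutations of 18 pair differences) was run in Python 3.11.15 with NumPy 2.4.6. Left out of it were 686 genes with a p under 0.05 between the controls in an ordinary t-test. Members are given by role or where groups differed. Members and lists were chosen with earlier results of these data known. Quantile normalization forces equal distributions, and amplification from few cells can add noise.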

Additional observations from a re-analysis of the deposited data

How the results depend on the processing

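The number of genes past an adjusted p was 0 in each comparison, and became 1 for the control comparison with only the arrays compared. Leaving out single arrays gave 0 to 1 for leader minus follower (1 without leader replicate 3), 0 to 4 for the controls, 0 to 4 for leader minus photoconverted, 0 to 4 for follower minus photoconverted (4 each time without IR replicate 1) and 0 to 1 for the difference of differences. Members lower in leader cells at an unadjusted p under 0.05 numbered 1, against 2 under cyclic loess (CHORDC1 and HSPD1), 2 with only the arrays compared, 3 with a replicate block and 1 to 4 with single arrays left out (4 without leader replicate 1). Those higher numbered 0 to 1. For the controls, lower members numbered 4, against 2 with the methods' t-test. With single arrays left out they numbered 2 to 6 (2 without IR replicate 3 or NG replicate 1). Higher members numbered 0 to 1. Of all symbols, 448 were lower in the main fit and 341 with the methods' t-test. With single arrays left out, 330 to 597 symbols were lower (346 without IR replicate 3, 597 without NG replicate 1) and 216 to 365 higher. The control median of -0.23 was -0.44 with the filter on level, over fewer members. For follower minus photoconverted, the alternatives for member counts were added after the data were seen. Higher members numbered 3 to 7 with single arrays left out, with no share over all symbols set beside those fits. The 1 lower member, CDC37, became 0 under cyclic loess, the filter on level, all probesets and the replicate block, and 0 to 1 with single arrays left out. With array weights, only the arrays compared or the methods' t-test the count stayed 1, but the member counted was PFDN2 and not CDC37. HSPA4 in leader minus follower ran from -1.32 to 0.11 (0.11 without leader replicate 3). After each group's mean was taken out of each gene, same-numbered arrays of different groups correlated at -0.07 to 0.22. Of these 18 pairs, 3 lay over 0.1. The values do not settle whether the replicate numbers pair arrays, and the main model did not use the numbers. The causes of these changes were not tested. The search of protein motifs was not run. The 3 arrays per group and the few cells behind each limit the precision.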

Other observations

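Genes around the chaperones were described from lists of known roles, with unadjusted limma p and no gene past the adjusted threshold. Of 14 measured genes of folding and the unfolded protein response in the endoplasmic reticulum, 11 were lower in photoconverted than in non-photoconverted cells, with a median of -0.45, and 2 had an unadjusted p under 0.05, beside 47.3% lower and 3.01% lower at that p over all symbols. CALR (calreticulin), a calcium-binding chaperone of glycoproteins, was at 3.05, 5.06 and 4.79 in photoconverted cells, against 6.34, 6.88 and 6.83 in non-photoconverted cells. Its arrays were well apart, with a difference of -2.38 (standard error 0.51, adjusted p = 0.614 in limma). SEL1L, a part of the machinery that clears misfolded proteins from this compartment, was at 3.58, 3.73 and 3.85 in photoconverted cells, against 4.46, 5.24 and 4.65 in non-photoconverted cells. Leader and follower cells differed by 0.05 for CALR and by -0.28 for SEL1L, both less than their standard errors.

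Of 13 measured cochaperones outside the members, ST13 (HIP), which holds HSP70 in its ADP state, was at 4.90, 4.62 and 4.76 in leader cells, against 4.14, 3.74 and 3.42 in follower cells. It was the 1 cochaperone of this list with an unadjusted p under 0.05 between them, beside 2.14% of all symbols higher at that p. The difference was 0.99 (standard error 0.28), in the direction opposite to that of CHORDC1. ST13 also differed between the invasive controls, by -0.69 for photoconverted minus non-photoconverted (standard error 0.28, unadjusted limma p of 0.031). PPID, a cyclophilin that binds HSP90, had a photoconverted minus non-photoconverted difference of -1.65 (standard error 0.60). Of 15 immediate-early genes measured, 6 were higher and 9 lower in leader than in follower cells, with a median of -0.06. At an unadjusted p under 0.05, 1 was higher and 3 were lower, beside 2.14% and 1.98% of all symbols. Between the invasive controls the median was 0.08, with 1 gene higher and 1 lower at that p, beside 1.85% and 3.01% of all symbols. EGR1 was at 6.85, 9.87 and 9.92 in leader cells, against 10.90, 11.22 and 11.59 in follower cells, and at 8.99, 11.28 and 10.71 in photoconverted cells, against 5.53, 8.57 and 9.29 in non-photoconverted cells. Its differences of -2.36 and 2.53 (standard error 1.02 each) had opposite signs in the 2 pairs. DUSP1, a phosphatase that acts on MAP kinases, was at 2.81, 2.36 and 2.53 in leader cells, against 3.53, 3.49 and 3.41 in follower cells. ATF3, a stress-inducible transcription factor, ran the other way, at 3.05, 3.03 and 4.0 in leader cells, against 2.89, 2.62 and 2.68 in follower cells, and at 2.91, 2.62 and 2.63 in photoconverted cells, against 3.37, 3.08 and 3.72 in non-photoconverted cells. Its differences were 0.63 and -0.67 (standard error 0.27 each).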
